A study of Homo sapiens with 6 samples.

Results

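The heat shock chaperones described here are 10 genes whose products fold and refold proteins in the cytosol and in mitochondria: HSPA1A, HSPA1B, HSPA8, HSPH1, DNAJB1, HSP90AA1, HSP90AB1, HSPB1, HSPD1 and HSPE1. They were chosen by symbol, and all 10 have a row among the 61860 genes of the deposited table. The data are RNA sequencing counts from 5637, an established human bladder cancer cell line, with 3 libraries under the label siYTHDC1 and 3 under siNC, the control. YTHDC1 encodes a nuclear reader of N6-methyladenosine in RNA, and the comparison asks how transcripts differ when it is targeted. Both groups share the line, its culture in serum-containing medium and a treatment that the labels describe with words for transfection, infection and a plasmid, so the reagent is not clear. Separate cultures per replicate are not mentioned, so p-values below speak only of the spread among these libraries, and that spread could be technical.

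HSP70 proteins bind exposed hydrophobic stretches of unfolded proteins in a cycle driven by ATP. J-domain proteins such as the product of DNAJB1 deliver substrates and start ATP hydrolysis, and HSP110 proteins such as that of HSPH1 exchange the nucleotide. HSP90 acts later on kinases, steroid receptors and other clients, small heat shock proteins such as HSPB1 hold unfolded proteins without ATP, and HSPD1 with its lid HSPE1 forms the folding chamber of the mitochondrial matrix. Many of these genes are induced by the transcription factor HSF1, which binds heat shock elements built of repeated GAA and TTC units.

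Total counts were 33223480 to 34858457 in the libraries labelled siYTHDC1 and 34628360 to 35607577 in those labelled siNC. YTHDC1 itself gave overlapping groups, with 161, 18 and 14 counts in the libraries labelled siYTHDC1 and 50, 786 and 55 counts in the libraries labelled siNC. It was called lower (log2 fold change -2.20, edgeR adjusted p = 0.00864). However, the log2 fold change reversed to 0.31 without siNC replicate 2 and was -4.17 without siYTHDC1 replicate 1. Every direction below is therefore that of the label. All 7 epithelial markers examined were detected, with a summed level of 5940 to 6050 CPM in the libraries labelled siYTHDC1 against 10600 to 10800 CPM in those labelled siNC. Of 4 immune markers 3 were at 0, and the summed immune level was at most 0.0573 CPM. The 4 fibroblast markers, of which DCN was at 0, summed to 91.3 to 96.5 CPM against 78.2 to 84.5 CPM, and the 3 endothelial markers to 5.43 to 6.81 CPM against 4.65 to 7.14 CPM, siYTHDC1 before siNC. The part of these markers in the chaperone values was not tested, and fewer cells of a kind cannot be told apart from less RNA per cell.

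A gene is called below when edgeR's quasi-likelihood test gave it a Benjamini-Hochberg adjusted p under 0.05, the adjustment running over the 17372 genes past the low-count filter. Levels are given in CPM, counts scaled to library size with TMM factors. Of the 10 chaperone genes, 8 passed the filter, and HSPA1A and HSPA1B did not. In the libraries labelled siYTHDC1 HSPD1 rose, whereas HSPA8, HSPB1 and DNAJB1 fell. HSP90AA1, HSP90AB1, HSPH1 and HSPE1 were not called. Over all genes tested 53.4% were called, 26.3% higher and 27.1% lower, so 4 calls among 8 genes is close to that background. The absolute log2 fold change had a median of 0.13 over the 8 genes and of 0.30 over all genes tested. Neither background was matched for level. By mean CPM, HSPE1 ranked 7363 in the table and every other tested chaperone ranked from 24 to 853. Neither comparison is therefore like for like. The 10 genes together took 0.527% to 0.55% of the counts in the libraries labelled siYTHDC1 and 0.561% to 0.577% in those labelled siNC. These ranges did not overlap, which also held for 59.3% of all genes tested, taken singly. The largest falls within the sum were those of HSPA8 and HSPB1, while HSPD1 rose, so the sum does not describe each gene.

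**Figure D1:**
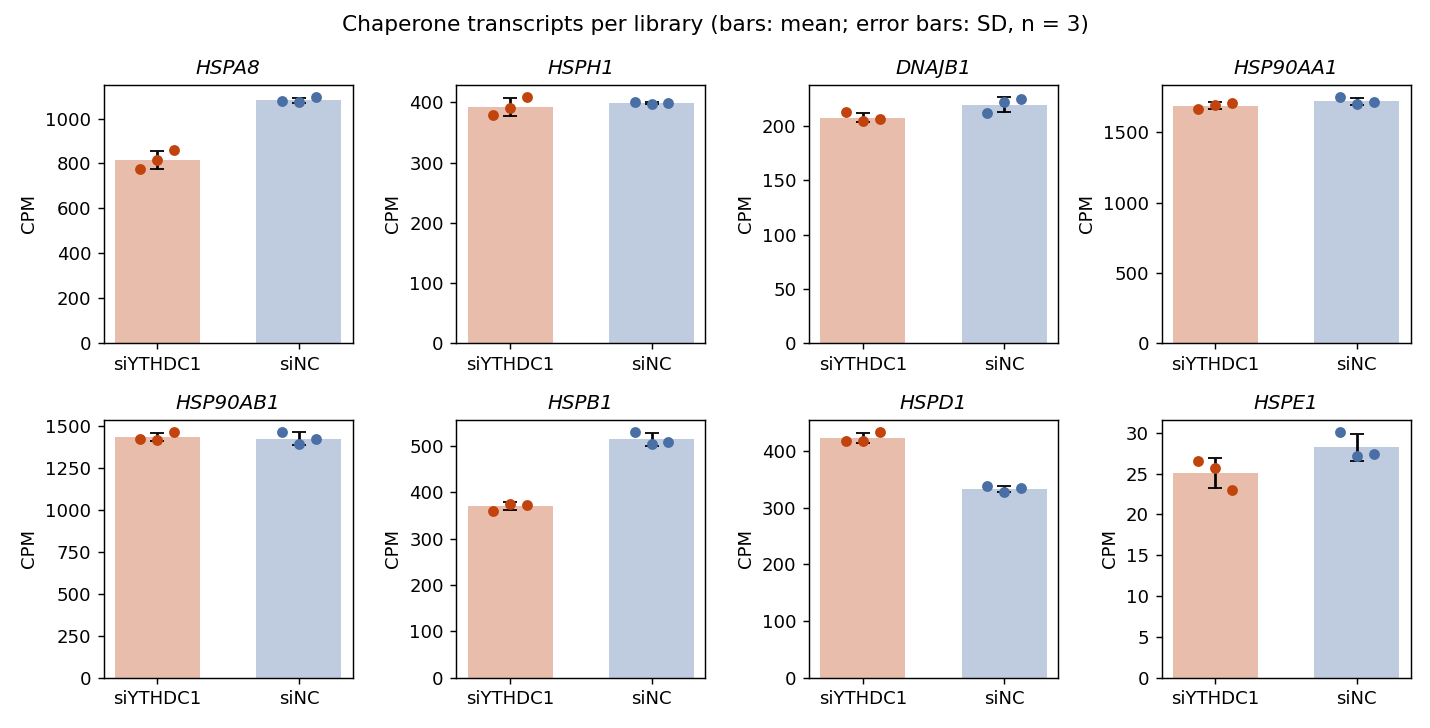
Level (CPM) of the 8 tested chaperone genes in each library; points are libraries, bars the mean of 3 libraries and error bars the SD. HSPA8, HSPB1, HSPD1 and, by little, HSPE1 show separated groups, whereas the DNAJB1, HSP90AA1, HSP90AB1 and HSPH1 points of the groups overlap.

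The promoters were searched on both strands for exact matches to heat shock element patterns. Elements that depart from these letters were not searched for, so a gene without a match may still hold such an element. The RefSeq promoter table (GRCh38.p14) gives 300-base windows, 250 before and 50 after each start site, and all 10 genes matched, some with several windows. The 3-unit element, in which GAANNTTC is followed by NNGAA or, on the other strand, TTCNNGAA by NNTTC, was found in any window of 4 of the 10 genes, against 0.49% of all 35116 windows taken singly. These were HSPA8, HSPD1, HSP90AA1 and HSP90AB1. A 2-unit stretch, GAANNTTC or TTCNNGAA, both contained in the 3-unit element, was found for 8 of 10 genes and in 13.5% of all windows. TATAAA was found for HSPA1A and HSPA1B, and in 11.5% of all windows, and CCAAT for 5 of 10 genes and in 34.6% of all windows. For each motif a gene counts if any of its windows holds it, whereas the background takes windows singly, so the shares are not like for like. The upstream 250 bases of the 3 genes with the largest changes are shown first, with the elements in capitals (for HSPB1 a 2-unit stretch):
HSPA8, chr11:123062137-123062386, minus strand: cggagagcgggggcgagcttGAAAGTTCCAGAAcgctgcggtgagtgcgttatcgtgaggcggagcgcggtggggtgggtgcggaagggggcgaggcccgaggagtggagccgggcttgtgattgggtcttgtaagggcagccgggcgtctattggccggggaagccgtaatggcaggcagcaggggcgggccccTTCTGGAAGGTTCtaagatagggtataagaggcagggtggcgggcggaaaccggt
HSPB1, chr7:76302423-76302672, plus strand: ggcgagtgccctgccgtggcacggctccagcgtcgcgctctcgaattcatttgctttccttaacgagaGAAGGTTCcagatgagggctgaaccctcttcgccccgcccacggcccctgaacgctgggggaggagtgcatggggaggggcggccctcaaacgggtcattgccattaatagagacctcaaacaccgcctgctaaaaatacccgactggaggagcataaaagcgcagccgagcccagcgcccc
HSPD1, second window, chr2:197499841-197500090, minus strand: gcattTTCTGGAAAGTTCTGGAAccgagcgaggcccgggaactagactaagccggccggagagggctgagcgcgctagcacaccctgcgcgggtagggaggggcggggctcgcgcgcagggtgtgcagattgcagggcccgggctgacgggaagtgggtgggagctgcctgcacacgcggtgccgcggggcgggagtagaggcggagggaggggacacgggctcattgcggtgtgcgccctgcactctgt
The elements of the HSP90 genes, which were not called, lay only in window 2 of HSP90AA1 and only in window 3 of HSP90AB1. They are given with 6 bases on either side for comparison:
HSP90AA1, chr14:102087114-102087138, minus strand: gggttcTTCCGGAAGGTTCgggagg
HSP90AB1, distal, chr6:44247772-44247796, plus strand: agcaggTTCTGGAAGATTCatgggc
HSP90AB1, proximal, chr6:44247825-44247849, plus strand: agattgTTCTGGAAGCTTCtggatt
HSPA8 held elements beginning 230 and 55 bases before its start site. HSPD1 held a run of overlapping elements within its second window, beginning 245 bases before the start site of that window. The first window of HSPD1 overlaps that of HSPE1 by 204 bases on the other strand, and the HSPD1 run lies 44 bases outside the HSPE1 window. Of the 4 genes with a 3-unit element, HSPA8 fell, HSPD1 rose and the HSP90 genes were not called. Across the table, 59 tested genes have such a window, of which 25 were called higher and 14 lower (66.1%), against 58.8% called among 11833 tested genes whose windows lack it. This grouping was made after values had been seen and carries no test.

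HSPA8 encodes the constitutive cytosolic HSP70, which also uncoats clathrin vesicles and serves chaperone-mediated autophagy. Its row (ENSG00000109971, chr11:123057489-123063230 on hg38, up to 9 exons) had 775.9, 814.7 and 857.7 CPM in the libraries labelled siYTHDC1, against 1077, 1072 and 1095 CPM in those labelled siNC. Every siYTHDC1 library lay below every siNC library. The level fell by 24.5% (log2 fold change -0.41 ± 0.03, SE; edgeR adjusted p = 8.94e-13), and the value ran from -0.45 to -0.37 when 1 library at a time was left out. Of its 75-base words 1.2% recur in transcripts of other genes, and small nucleolar RNAs within the gene hold most of the 3.61% of its exonic bases that other genes cover.

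HSPB1 encodes HSP27, a small heat shock protein that is abundant in epithelial cells and binds actin. It had 360.1, 375.8 and 373.9 CPM in the libraries labelled siYTHDC1 and 530.6, 505.4 and 508.7 CPM in those labelled siNC (ENSG00000106211, chr7:76302544-76304295, up to 3 exons). The groups were far apart relative to their spread. Its fall of 28.2% was the largest change among the 8 genes (log2 fold change -0.48 ± 0.03, SE; edgeR adjusted p = 5.59e-14). HSPB8, another small heat shock protein gene and a partner of BAG3, rose to 6.01 ± 0.25 CPM in the libraries labelled siYTHDC1, against 3.33 ± 0.82 CPM in those labelled siNC (SD, n = 3 each; log2 fold change 0.85 ± 0.18, SE; edgeR adjusted p = 0.000207). It was the only small heat shock gene outside the 10 that passed the filter, of 7 found in the table. Without siYTHDC1 replicate 3 another passed the filter and 2 rose.

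DNAJB1 encodes HSP40, the J-domain partner of cytosolic HSP70. It had 212.8, 204.9 and 206.3 CPM in the libraries labelled siYTHDC1, against 212.1, 222.4 and 225.1 CPM in those labelled siNC (ENSG00000132002, chr19:14514770-14529770, up to 4 exons). The groups overlapped, since siYTHDC1 replicate 1 lay above siNC replicate 1. The gene was called by a narrow margin (log2 fold change -0.08 ± 0.03, SE; edgeR adjusted p = 0.0435) and passed in 5 of 15 alternatives, with adjusted p from 0.0136 to 0.161. Its call was lost without siYTHDC1 replicate 2 (-0.07, adjusted p = 0.153), siYTHDC1 replicate 3 (-0.08, 0.0513), siNC replicate 2 (-0.07, 0.124) or siNC replicate 3 (-0.07, 0.161).

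HSPH1, the HSP110 exchange factor, had 378.7, 391.1 and 408.7 CPM in the libraries labelled siYTHDC1, against 400.7, 397 and 399.4 CPM in those labelled siNC (ENSG00000120694, chr13:31134974-31162388). The siYTHDC1 libraries lay on either side of the siNC libraries, which were close together. Its log2 fold change was -0.02, with a 95% interval from -0.08 to 0.04 (edgeR adjusted p = 0.541).

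The cytosolic HSP90 genes encode a stress-inducible form, HSP90AA1, and a constitutive form, HSP90AB1, which act on the same broad set of clients. HSP90AA1 (ENSG00000080824, chr14:102080738-102139699) had 1666, 1695 and 1712 CPM in the libraries labelled siYTHDC1 and 1751, 1700 and 1714 CPM in those labelled siNC. HSP90AB1 (ENSG00000096384, chr6:44246166-44253888) had 1425, 1415 and 1463 CPM in the libraries labelled siYTHDC1 and 1465, 1391 and 1422 CPM in those labelled siNC. The groups overlapped for both genes. The 95% interval of the log2 fold change ran from -0.07 to 0.02 for HSP90AA1 (edgeR adjusted p = 0.295) and from -0.04 to 0.05 for HSP90AB1 (edgeR adjusted p = 0.784). The ratio of HSP90AA1 to HSP90AB1 counts, which needs no scaling, was 1.17, 1.2 and 1.17 in the libraries labelled siYTHDC1 and 1.2, 1.22 and 1.2 in those labelled siNC. The log2 difference of -0.03 did not pass an exact 2-sided permutation test (p = 0.2, where 3 against 3 cannot go below 0.1).

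HSPD1, the mitochondrial chaperonin HSP60, moved the other way. It had 417.4, 417.3 and 433.6 CPM in the libraries labelled siYTHDC1, against 338.2, 327 and 334.7 CPM in those labelled siNC (ENSG00000144381, chr2:197486581-197516737, up to 12 exons). All siYTHDC1 libraries lay above all siNC libraries. The level rose by 26.8% (log2 fold change 0.34 ± 0.03, SE; edgeR adjusted p = 5.01e-11). The row of the processed pseudogene HSPD1P1, which holds 4.13% of the 75-base words of HSPD1, had 194, 135 and 168 counts against 106, 150 and 122 counts, siYTHDC1 before siNC, and was not called. Exons of HSPE1 on the other strand cover 6.62% of the exonic bases of HSPD1, and it is not known whether the counting used the strand.

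HSPE1, the co-chaperonin HSP10 that caps the HSPD1 ring, is the neighbour of HSPD1 and is transcribed in the other direction (ENSG00000115541, chr2:197499994-197503457). It had 926, 857 and 786 counts, or 26.51, 25.73 and 22.97 CPM, in the libraries labelled siYTHDC1, against 1066, 934 and 950 counts, or 30.1, 27.11 and 27.44 CPM, in those labelled siNC. The siYTHDC1 libraries were all lower, but by little more than the spread within a group. The log2 fold change was -0.17 ± 0.07 (SE) and was not called (edgeR adjusted p = 0.0562, from 0.0326 to 0.242 over the alternatives). It was called in 4 of 15 alternatives, among them limma-voom (adjusted p = 0.0498), the fit without siYTHDC1 replicate 1 (-0.21, edgeR adjusted p = 0.0362) and the fit without both siYTHDC1 replicate 1 and siNC replicate 2 (-0.24, edgeR adjusted p = 0.0326). Groups did not overlap for 4 of the 8 chaperone genes (HSPA8, HSPB1, HSPD1 and HSPE1), against 59.3% of all genes tested.

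The ratio of HSPE1 to HSPD1 counts was 0.0635, 0.0616 and 0.053 in the libraries labelled siYTHDC1 and 0.089, 0.0829 and 0.082 in those labelled siNC. It was 30% lower in the libraries labelled siYTHDC1, with no overlap between the groups (log2 difference -0.52, exact 2-sided permutation p = 0.1, the smallest that 3 against 3 allows). The difference combines the rise of HSPD1 (log2 fold change 0.34) with the smaller, uncalled fall of HSPE1 (-0.17). Per kilobase of longest transcript, HSPE1 had a level of 26.4 ± 1.96 CPM in the libraries labelled siYTHDC1, where HSPD1 had 172 ± 3.83 CPM (SD, n = 3 each). Exons of other genes cover 23.9% of the exonic bases of HSPE1, and those of HSPD1, on the other strand, 11.3%. The read-through gene HSPE1-MOB4 shares 8.35% of the exonic bases of HSPE1 on the same strand and had 0 counts in each library, and 26 HSPE1 pseudogene rows held 93, 44 and 78 counts against 96, 61 and 74 counts, siYTHDC1 before siNC. The part of overlapping exons and shared sequence in the HSPE1 level and in the ratio was not tested.

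**Figure D2:**
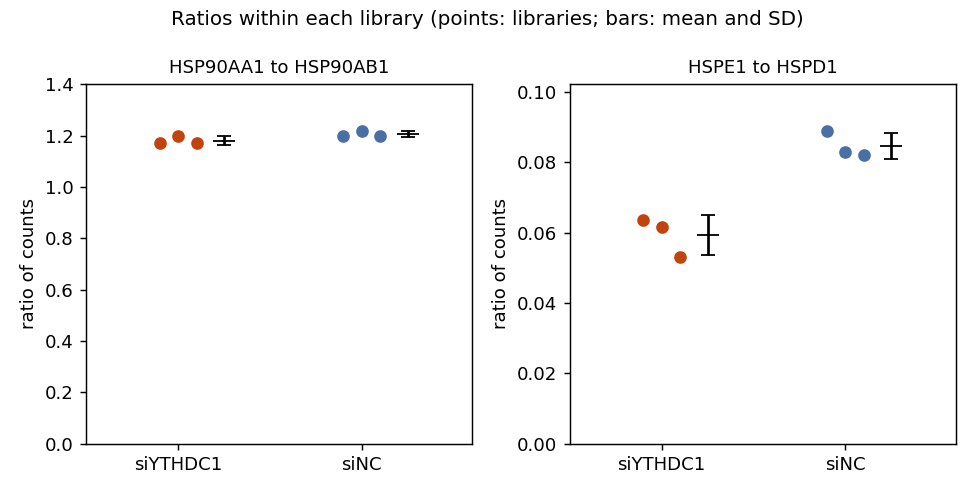
Ratio of counts within each library for HSP90AA1 to HSP90AB1 and for HSPE1 to HSPD1; points are libraries and black bars the mean and SD of 3 libraries. The HSP90 ratios lie between 1.17 and 1.22 in both groups, whereas the HSPE1 to HSPD1 ratios are at most 0.0635 in the libraries labelled siYTHDC1 and at least 0.082 in those labelled siNC.

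**Figure D3:**
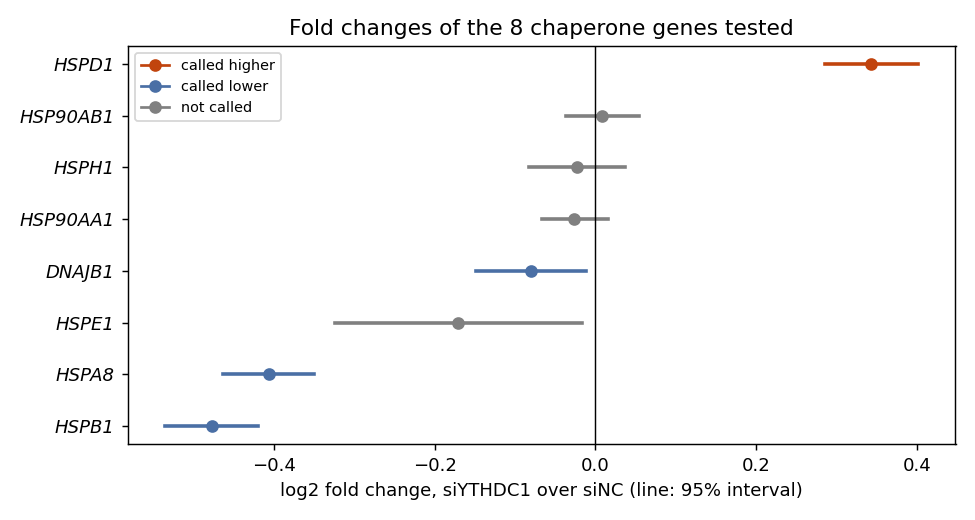
Log2 fold change of the libraries labelled siYTHDC1 over those labelled siNC for the 8 chaperone genes tested, with 95% intervals. HSPB1 (-0.48) and HSPA8 (-0.41) lie far below 0, HSPD1 (0.34) lies above it, and the intervals of HSP90AA1, HSP90AB1 and HSPH1 include 0.

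Per kilobase of longest transcript, the levels in the libraries labelled siYTHDC1 were 536 ± 9.51 CPM for HSP90AB1, 482 ± 6.65 for HSP90AA1, 331 ± 16.6 for HSPA8, 254 ± 5.89 for HSPB1, 172 ± 3.83 for HSPD1, 91.9 ± 1.87 for DNAJB1, 75.7 ± 2.9 for HSPH1 and 26.4 ± 1.96 for HSPE1 (SD, n = 3). In the libraries labelled siNC the order was the same, with 533 ± 13.8 for HSP90AB1, 490 ± 7.57 for HSP90AA1, 439 ± 4.94 for HSPA8, 354 ± 9.41 for HSPB1, 136 ± 2.33 for HSPD1, 97.1 ± 3.03 for DNAJB1, 76.9 ± 0.356 for HSPH1 and 29.7 ± 1.73 for HSPE1. In both groups each gene and the next in this order were farther apart than the sum of their SDs. The order depends on the length used: over the union of exons HSPB1 (226 in the libraries labelled siYTHDC1, 315 in those labelled siNC) stood above HSPA8 (168 and 223, in the same order of labels).

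HSPA1A and HSPA1B encode the stress-inducible HSP70 and were almost without counts. HSPA1A (ENSG00000204389, chr6:31815464-31817946) had 0, 0 and 2 counts in the libraries labelled siYTHDC1 and 0, 1 and 4 counts in those labelled siNC. HSPA1B (ENSG00000204388, chr6:31827735-31830255) had 0, 18 and 0 counts against 1, 0 and 2 counts, siYTHDC1 before siNC. Summed over both genes and 3 libraries this is 20 counts in the siYTHDC1 group, 18 of them from replicate 2, and 8 counts in the siNC group (exact 2-sided permutation test of summed CPM, p = 0.7, smallest possible 0.1). A count of 0 allows up to 0.0903 CPM in the shallowest library, counting error only. No ratio to HSPA8 is given, because a library has 0 counts for both genes.

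The low counts were shared by genes around them, and their cause was not tested, so they are not read here as low expression. The coding sequences of HSPA1A and HSPA1B differ at 4 of 1923 bases (99.8% identity), their upstream 250 bases are 93.6% identical in an alignment, and 69.3% of the 75-base words of HSPA1A recur in transcripts of other genes, 73.2% for HSPA1B. Exons of AL671762.1, a processed transcript on the same strand, cover 36.5% of the exonic bases of HSPA1B. It holds 31.2% of the words of HSPA1A and 34.6% of those of HSPA1B. Sequence shared by the other genes around them was not measured. Of the 17 other protein-coding genes starting within 100 kilobases of HSPA1A, 11 had no count and the highest had 53 counts over 6 libraries. CLIC1, VARS and LSM2, housekeeping genes within that distance named after their values were seen, had 17, 53 and 7 counts over 6 libraries. Between 28 and 34 megabases on chromosome 6, a stretch that holds the major histocompatibility complex, 34 of 200 protein-coding genes (17.0%) had more than 60 counts over 6 libraries, against 570 of 839 (67.9%) on the rest of the chromosome. HSPA1L, the third HSP70 gene of the cluster, had 0 counts in each library.

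**Figure D4:**
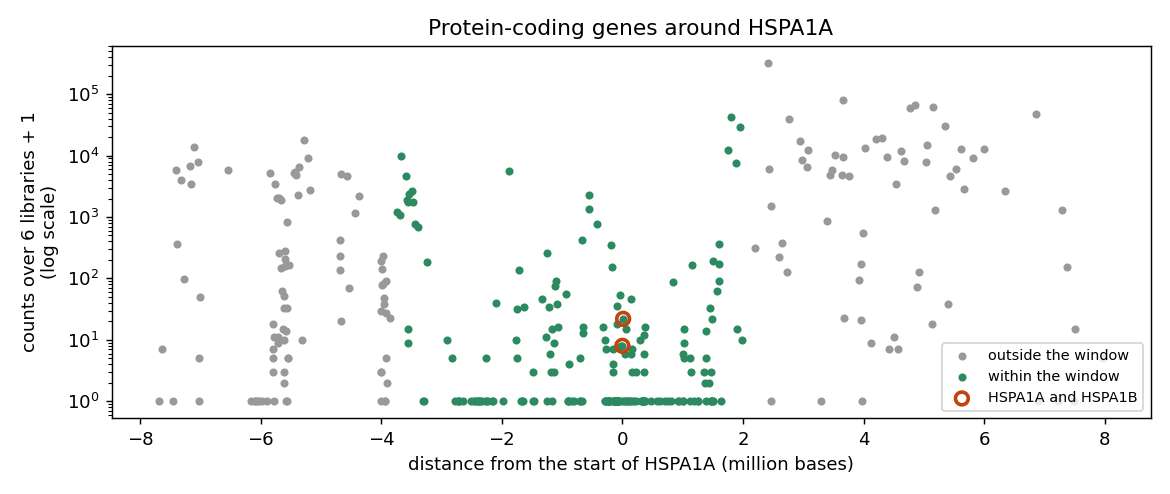
Counts over 6 libraries plus 1 (log scale) of protein-coding genes by distance from the start of HSPA1A; green points lie in the stretch from 28 to 34 megabases of chromosome 6, grey points outside it, and circles mark HSPA1A and HSPA1B. Most green points lie at or near the bottom (34 of 200 exceed 60 counts), and most of the high points on the plot are grey or lie at the edges of the stretch.

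The other genes of the chaperone system were counted in 7 lists, beside a background of 26.3% called higher and 27.1% lower with a median log2 fold change of 0 over all genes tested. Some lists share genes, so their counts are not separate. DNAJB9 is counted with both the regulators and the J-domain genes, and HSPA9 with both the HSP70 genes and the mitochondrial genes. Among regulators and stress-response factors, 10 of 16 tested genes rose and 5 fell (median log2 fold change 0.25). HSF1, the main heat shock transcription factor, rose to 195, 203.9 and 195.4 CPM in the libraries labelled siYTHDC1, against 157.8, 156.3 and 158.4 CPM in those labelled siNC (0.33 ± 0.03, SE; edgeR adjusted p = 2.77e-09). HSF2, a related factor active in development and stress, rose by less (0.27 ± 0.07; edgeR adjusted p = 0.0017). The largest changes were rises of PPP1R15A (0.78 ± 0.05), a phosphatase regulator that reverses the translation block of the integrated stress response, ATF3 (0.76 ± 0.08), a stress-induced transcription factor, and DNAJB9 (0.64 ± 0.08), an endoplasmic reticulum (ER) J-domain protein. BAG3 (0.24 ± 0.04), an HSF1-induced co-chaperone, rose as well, while the collagen chaperone gene SERPINH1 (-0.39 ± 0.03) and HMOX1 (-0.44 ± 0.08), which encodes heme oxygenase and is induced by heat and oxidants, fell. The other falls in the list were CREBBP (-0.531 ± 0.052), EP300 (-0.475 ± 0.053) and SIRT1 (-0.428 ± 0.074). BAG3 and all the falling genes were named after their values were seen.

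Of 11 other HSP70 and HSP110 genes tested, 4 rose, 2 fell and 5 were not called (median 0.08). HSPA5, the ER HSP70 known as BiP, had 2150, 2146 and 2252 CPM in the libraries labelled siYTHDC1, against 1442, 1383 and 1377 CPM in those labelled siNC (0.64 ± 0.02, SE; edgeR adjusted p = 7.26e-19). HSPA8 fell where HSPA5 rose, each with groups that did not overlap. The other rises, named after their values were seen, were the ER genes HYOU1 (0.59 ± 0.03) and HSPA13 (0.54 ± 0.06) and the mitochondrial HSP70 gene HSPA9 (0.27 ± 0.03), which works with HSPD1 in the matrix. The strictly stress-inducible HSPA6 was scarce and fell, with 67, 79 and 53 counts in the libraries labelled siYTHDC1 and 133, 136 and 97 counts in those labelled siNC (-0.85 ± 0.23; edgeR adjusted p = 0.00285). Of its 75-base words 35% recur in HSPA7, whose row had at most 4 counts in a library. HSPA12B (-0.80 ± 0.32; edgeR adjusted p = 0.0334) lost its call without siYTHDC1 replicate 1 (-0.57, 0.151), siNC replicate 1 (-0.78, 0.0804) or siNC replicate 2 (-0.78, 0.0788).

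Of 11 tested J-domain genes of types A and B other than DNAJB1, 8 rose and 2 fell (median 0.18). Type C genes were not in this list, and HSCB and DNAJC19 are counted with the mitochondrial genes. The largest rises were DNAJB9, DNAJB14 (0.36 ± 0.06, SE), an ER membrane protein, and DNAJB4 (0.35 ± 0.06), a cytosolic relative of DNAJB1. DNAJA1 (0.11 ± 0.03) and DNAJA2 (0.18 ± 0.04), the main type A partners of HSPA8, also rose, whereas DNAJB2 (-0.23 ± 0.05) and DNAJB12 (-0.27 ± 0.06) fell. These 4 were named after their values were seen.

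Co-chaperones of HSP90 and HSP70 moved in both directions: 5 of 22 rose, 8 fell and 9 were not called (median -0.05). UNC45A, the myosin-directed HSP90 co-chaperone, rose by 0.45 ± 0.04 (SE) and AHSA1, the activator of HSP90 ATPase, named after its value was seen, by 0.41 ± 0.04. CHORDC1 (-0.44 ± 0.05), an HSP90 partner, and HSPBP1 (-0.43 ± 0.04), a nucleotide exchange factor of cytosolic HSP70, fell. STIP1 (-0.16 ± 0.03), the adaptor that links HSP70 to HSP90, and BAG1 (-0.33 ± 0.05), another HSP70 exchange factor, both named after their values were seen, fell with them. CDC37 (0.03) and ST13 (0.04), a kinase-directed and an HSP70-binding co-chaperone, were not called and were also named after their values were seen. The 5 rises became 3 without siYTHDC1 replicate 2 and without siNC replicate 2.

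In the cytosolic chaperonin TRiC with prefoldin, which folds actin and tubulin, 2 of 13 tested genes rose and 6 fell (median -0.07). The falls became 3 without siNC replicate 2. The prefoldin subunit gene VBP1 fell by 0.71 on the log2 scale (edgeR adjusted p = 7.43e-13), and CCT2 and TCP1, named after their values were seen, by 0.38 and 0.27. CCT5 (0.39 ± 0.03, SE), with 30.1% of its exonic bases under exons on the other strand, and PFDN2 (0.38 ± 0.04) rose, so subunits of both complexes changed in opposite directions.

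Mitochondrial protein quality control genes rose in 6 of 14 tested members and fell in 2 (median 0.01). The matrix protease gene LONP1 had 229.3, 233.5 and 222.8 CPM in the libraries labelled siYTHDC1, against 147.6, 144.1 and 148.6 CPM in those labelled siNC (0.64 ± 0.03, SE; edgeR adjusted p = 3.87e-15). GRPEL2 (0.50 ± 0.07), an exchange factor of mitochondrial HSP70, and CLPB (0.33 ± 0.06), a disaggregase of the intermembrane space, rose, CLPB being named after its value was seen. HSCB (-0.72 ± 0.16), the J-domain protein of iron-sulfur cluster assembly, fell. It was scarce (3.61 against 5.97 CPM, siYTHDC1 before siNC), and exons on the other strand cover 20.6% of its exonic bases. The other fall in the list, SPG7 (-0.29 ± 0.05), was named after its value was seen. DNAJC19 (-0.07), a J-domain protein of the import motor named after its value was seen, was not called. TRAP1 (-0.01 ± 0.05), the mitochondrial HSP90, and CLPP (-0.04 ± 0.04), a matrix protease subunit, were not called and were named after their values were seen.

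**Figure D5:**
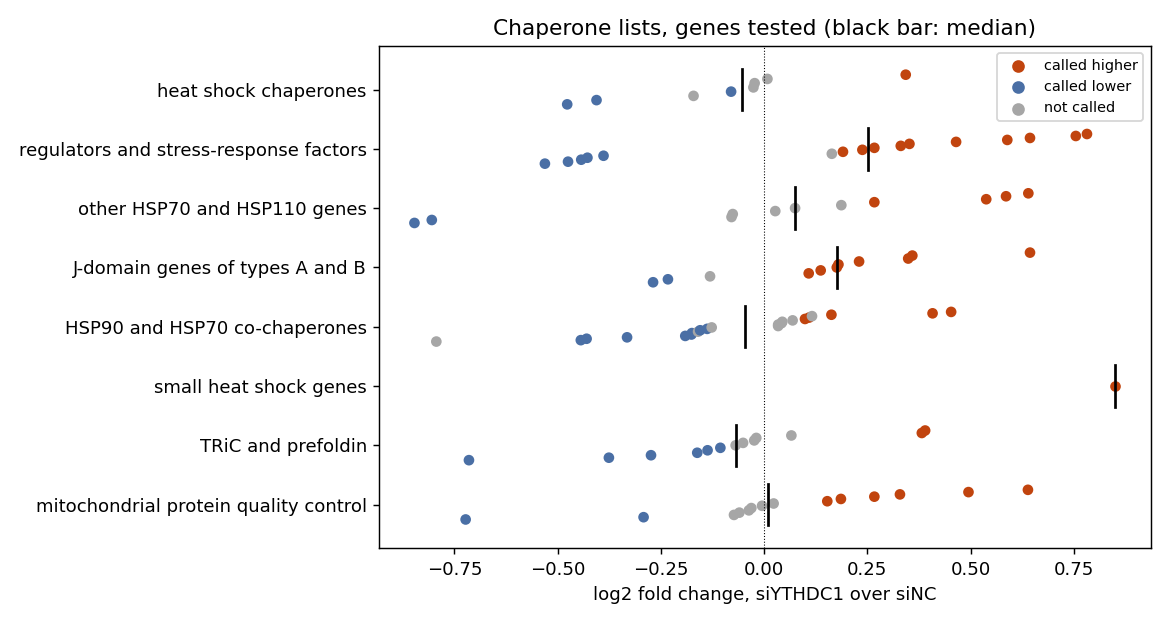
Log2 fold change, siYTHDC1 over siNC, of each tested gene in the 10-gene chaperone set and in 7 further lists; colours give the call and black bars the median of a list. The chaperone set spans -0.48 to 0.34, J-domain genes of types A and B lie mostly above 0 (8 of 11 called higher), and co-chaperones lie on both sides (5 higher, 8 lower).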

How the data were processed

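RNA of 6 libraries was sequenced, and the authors deposited raw read counts per Ensembl gene, 1 column per library, as whole numbers. Per the labels' protocols, RNA was column-purified and libraries made with a directional kit. The submitters' processing notes name hg38. The aligner, counter, annotation and strand setting were not given in the sources used here. Columns were matched to samples by name, and the S1 in the siYTHDC1 column names is not explained by the labels. CPM are counts per 1000000 of TMM-scaled library total, computed here. Totals were 33223480 to 35607577 counts, and intervals cover the spread between libraries or counting error only.

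Counts as deposited were fitted in R 4.3.3 with edgeR 4.0.16 and its quasi-likelihood test (TMM scaling, default low-count filter, group as the only term), with intervals from the fit. The fit was tested on simulated counts with the same variability setting for all genes. Far fewer genes were changed there than were called here, and by more than any chaperone gene tested. Symbols came from an Ensembl table for 61757 genes and GENCODE release 29 for 101. Exon structures, lengths and shared 75-base words came from GENCODE release 29. Its transcripts stood in for proteins, which were not analysed here. Ratios within libraries were tested by exact permutation with SciPy 1.17.1. HSPA1A and HSPA1B were tested as a sum of CPM, because their summed row did not pass the filter.

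Named genes are the 10 chaperones, YTHDC1, HSF1, HSF2 and, from each list, up to 3 called genes averaging 1 CPM or more, taken by size of change. Other genes are marked in the text as named after their values were seen. Members and lists were chosen with earlier results of these data known. Alternatives were scaling by median ratio, by upper quartile or by totals alone, DESeq2 1.42.0, limma-voom (limma 3.58.1), other filters, the replicate number as a block, and leaving out each library.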

Additional observations from a re-analysis of the deposited data

How the results depend on the processing

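Across 15 alternatives HSPA8 and HSPB1 stayed lower and HSPD1 stayed higher, each called in every one, with the single-library omissions between -0.45 and -0.37, -0.49 and -0.46, and 0.32 and 0.35. Calls lower among the 10 genes numbered 2 to 4 when 1 library was left out, and 2 with upper-quartile scaling, no scaling, DESeq2 or another low-count filter; the gene that came and went was DNAJB1 or HSPE1. Uncalled values changed sign for HSPH1 (-0.055 to 0.004 with 1 library left out, the last without siYTHDC1 replicate 1) and HSP90AB1 (-0.011 to 0.023), which came to -0.009 without siYTHDC1 replicate 3, -0.011 without siNC replicate 2 and -0.006 without both siNC replicate 2 and siYTHDC1 replicate 1, the libraries with the most YTHDC1 counts of their groups, an alternative chosen after seeing the data. YTHDC1 ranged from -4.168 to 0.308 with 1 library left out, the last without siNC replicate 2. Among the lists, falls of other HSP70 and HSP110 genes numbered 1 with DESeq2, 1 without both those libraries and 1 to 3 when 1 library was left out. Rises of co-chaperones numbered 3 without both libraries and 3 to 5 with 1 left out, falls of TRiC and prefoldin genes 3 and 3 to 6, and rises of small heat shock genes 1 to 2 with 1 left out. The cause of these differences was not tested. The ratio of HSPE1 to HSPD1 ranged from -0.566 to -0.435 and that of HSP90AA1 to HSP90AB1 from -0.046 to -0.026 (log2 differences) with 1 library left out.

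Same-numbered libraries did not deviate together (correlations of deviations 0.005, -0.007 and -0.017, against -0.018 to 0.024 for differently numbered ones). With 3 pairs this shows no shared deviation, but it cannot tell whether the numbers pair the samples. With the replicate block, 4 of the 10 genes were called lower and 1 higher, the added call being HSPE1 (edgeR adjusted p = 0.049), and 4532 and 4695 genes were called higher and lower over the table, against 4576 and 4702 without it. The ratio differences were -0.515 and -0.034 as before (exact sign-flip p at least 0.25, the smallest that 3 pairs allow). The summed HSPA1A and HSPA1B row was under the filter and was given no alternatives, and its ratio to HSPA8 could not be formed.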
